A study of Mus musculus with 6 samples.

Results

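The TOX, NR4A and NFAT transcription factors form the axis through which sustained antigen receptor signalling installs exhaustion in CD8 T cells. The 8 genes Tox, Tox2, Nr4a1, Nr4a2, Nr4a3, Nfatc1, Nfatc2 and Nfatc3 were taken by symbol from a table of 49671 mouse genes, and each symbol matched 1 Ensembl identifier. Expression was high enough to test 7 of the 8, among 12242 genes tested in all. The cells were OT-I CD8 T cells, which carry a transgenic receptor for the ovalbumin peptide SIINFEKL, isolated from spleen. The 3 libraries labelled CD73 KO came from cells lacking CD73, the surface enzyme encoded by Nt5e that turns AMP into adenosine, and the 3 labelled WT came from OT-I cells with CD73. Both genotypes received the peptide at 10 ng/mL daily for 5 days with IL-7 and IL-15, each at 5 ng/mL, were replated after 48 hours, and were sorted as live cells before RNA extraction. No unstimulated or acutely stimulated cells were part of the comparison, so the levels below are those of repeatedly stimulated cells of both genotypes. The age and sex of the mice, how the CD73 allele was made and whether libraries came from separate animals are not stated by the labels. The p-values therefore set each group difference only against the scatter among these samples, and that scatter may be technical.

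NFAT proteins are held in the cytoplasm by phosphorylation. Calcium entry after receptor engagement activates the phosphatase calcineurin, which strips the phosphates and lets NFAT enter the nucleus. There NFAT pairs with AP-1 at effector genes, and when AP-1 is limiting it drives genes of unresponsiveness, Nr4a and Tox among them. The 3 NR4A proteins are orphan nuclear receptors whose genes are switched on within minutes by receptor signals and, through the factor CREB, by cAMP, the second messenger that adenosine receptors raise. TOX is a nuclear protein of the HMG-box family that exhausted CD8 T cells need in order to persist in chronic infection and tumours. RNA levels do not report the phosphorylation or location of NFAT.

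The targeted gene did not separate the labels. Nt5e was counted 69, 128 and 88 times in CD73 KO replicates 1 to 3, against 290, 49 and 263 times in WT replicates 1 to 3, and the library labelled WT replicate 2, at 5.22 CPM, lay inside the CD73 KO range of 3.67 to 8.47 CPM. In a fit without that library 4 genes were called, Gm11868, Gm13456, Gm5869 and Mns1, and in all 4 the library lay with the other WT libraries, outside the CD73 KO range. Gm11868, for example, was at 19.5 to 24.8 CPM in CD73 KO, against 0.639 CPM in WT replicate 2 and 0.285 to 0.467 CPM in the other WT libraries. The difference of each tested factor is also given without WT replicate 2. CPM is the count per 1000000 counts of a library, after TMM adjustment of library size. Library totals ran from 10202128 to 19382950 counts in CD73 KO and from 6934150 to 13039990 in WT. All 9 CD8 T cell markers were detected in every library, and their summed level was 4790.4 to 5252 CPM in CD73 KO, against 4548 to 4759 CPM in WT. Summed markers of other cells lay below those of CD8 T cells, and some of these genes were detected in every library. The B cell list summed to 1.83 to 2.71 CPM in CD73 KO, against 1.17 to 1.99 CPM in WT. Of its 6 genes, 2 were detected in every library, and Ms4a1 and Pax5 had 0 counts. The 11 myeloid and dendritic cell genes summed to 1.06 to 2.24 CPM in CD73 KO, against 1.56 to 1.99 CPM in WT. Of these, 2 were detected in every library, and Lyz2, Csf1r, C1qa, Spi1, Siglech and Xcr1 had 0 counts. The 4 NK cell genes, of which Eomes and Gzma are also made by CD8 T cells, summed to 3.63 to 22.0 CPM in CD73 KO, against 5.55 to 56.7 CPM in WT. CD4 T cell genes, nearly all of it Zbtb7b, summed to 22.8 to 26.5 CPM in CD73 KO, against 25.5 to 32.9 CPM in WT. The 7 stromal, epithelial and erythroid genes summed to 11.4 to 14.2 CPM in CD73 KO, against 9.59 to 13.5 CPM in WT. The part of these markers in the results was not tested.

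A start region of each of the 3 NR4A genes is shown because these genes answer both receptor and cAMP signals. The Nr4a1 window lies inside the gene as annotated by GENCODE, which begins at 101254269, and that upstream start was not searched. Each window runs 5′ to 3′ along the gene, from 250 bases before to 50 bases after the transcription start given by RefSeq on GRCm38.p6, the assembly of mm10. Capitals mark the CRE core, TGACG on either strand, which is part of the element that CREB binds.
Nr4a1 (chr15:101266596-101266895, plus strand): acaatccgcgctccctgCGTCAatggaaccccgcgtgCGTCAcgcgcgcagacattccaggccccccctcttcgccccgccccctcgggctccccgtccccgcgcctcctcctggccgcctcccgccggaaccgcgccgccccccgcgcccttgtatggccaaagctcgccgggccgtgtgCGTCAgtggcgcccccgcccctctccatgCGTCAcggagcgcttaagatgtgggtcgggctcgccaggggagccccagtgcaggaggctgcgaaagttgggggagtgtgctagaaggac
Nr4a2 (chr2:57123954-57124253, minus strand): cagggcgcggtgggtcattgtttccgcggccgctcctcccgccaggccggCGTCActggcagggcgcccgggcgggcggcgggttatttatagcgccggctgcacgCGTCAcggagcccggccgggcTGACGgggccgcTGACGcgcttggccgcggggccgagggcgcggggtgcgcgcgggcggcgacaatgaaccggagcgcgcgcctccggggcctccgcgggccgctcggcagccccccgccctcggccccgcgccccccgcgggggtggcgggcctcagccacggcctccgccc
Nr4a3 (chr4:48045055-48045354, plus strand): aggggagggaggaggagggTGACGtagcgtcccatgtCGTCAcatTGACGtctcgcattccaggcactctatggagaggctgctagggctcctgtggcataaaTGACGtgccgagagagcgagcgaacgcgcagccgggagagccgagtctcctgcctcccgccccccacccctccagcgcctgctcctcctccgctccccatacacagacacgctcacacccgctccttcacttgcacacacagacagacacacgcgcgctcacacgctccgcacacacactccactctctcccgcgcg

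Each of the 3 windows held 4 CRE cores. Among 32851 windows of the same length, 20.8% held at least 1 and 0.231% held 4 or more. Those windows were not matched to the NR4A windows for base composition, and TGACG contains CG. The full element TGACGTCA, present in 1.79% of windows, was found in none of the 3. The NFAT core GGAAA, present in 61.3% of windows, occurred once in Nr4a2 and in neither Nr4a1 nor Nr4a3. An EGR site, GCGGGGGCG, was found in Nr4a1 and in 2.91% of windows. No match to the AP-1 site TGANTCA (7.81% of windows) or to the NR4A element AAAGGTCA (1.51%) was found in the 3 windows. Both strands were searched, and TGACGTCA contains TGACG on each strand. In the other members with a window, Nfatc2 held 3 GGAAA matches at its upstream start and 1 at its downstream start, Nfatc3 held 1 TGACG and 1 GGAAA at one of its starts, and Tox2 held 1 TGACG at 1 of 5 starts and 1 GGAAA in each of 2 overlapping windows. Matches are letters in a window and do not show binding.

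**Figure D1:**
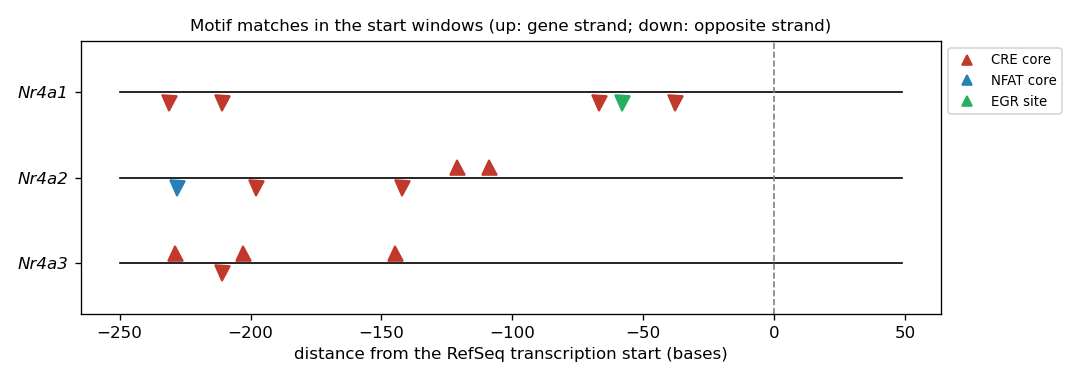
Motif matches in the NR4A start windows, by distance from the transcription start in bases; triangles above a line lie on the gene's strand and those below on the opposite strand. Each window holds 4 CRE cores, all upstream of the start, and the Nr4a1 window alone of the 3 holds an EGR site.

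Between genotypes, 0 of the 7 tested factors passed the adjusted threshold of 0.05 in edgeR's quasi-likelihood test, against 7 of 12242 genes, or 0.0572%. At an unadjusted p under 0.05 there were 2 of 7, Tox and Nr4a2, both on the higher side in CD73 KO, where 5.75% of all tested genes were. DESeq2, run without the filter, called 0 of the factors at the adjusted threshold, where it called 0.460% of 21314 genes. At an unadjusted p under 0.05 it had the same pair on the higher side, where 2.91% of genes were. In edgeR's fit all 7 log2 fold changes were above 0, as were 52.3% of those of all genes, and their median was 0.10 against 0.01 over all tested genes. The estimates fell in a band from 0.03 to 0.52 on the log2 scale. In bulk RNA, a change in the share of cells that express a gene and a change in RNA per cell cannot be told apart.

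**Figure D2:**
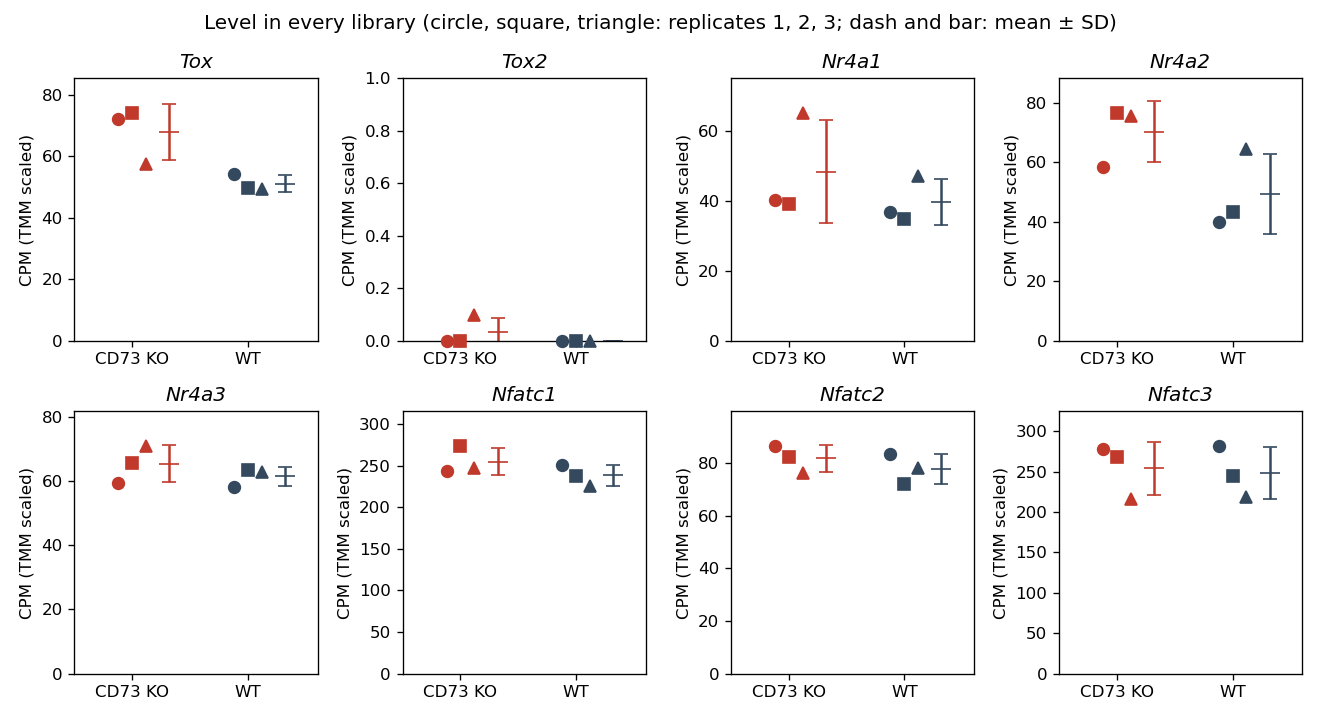
Level of each factor in CPM in every library, CD73 KO left and WT right; circles, squares and triangles are replicates 1, 2 and 3, and the dash with its bar is the mean ± SD (n = 3 each). Only Tox separates the genotypes, with a lowest CD73 KO library at 57.5 CPM and a highest WT library at 54.2 CPM.

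Tox (ENSMUSG00000041272, chromosome 4, 6686353 to 6991557, mm10) was the one factor whose groups did not overlap. It measured 72.1, 74.1 and 57.5 CPM among the CD73 KO libraries, against 54.2, 49.5 and 49.3 CPM in the WT libraries. CD73 KO replicates 1 and 2 stood well above all WT libraries, while CD73 KO replicate 3 exceeded WT replicate 1 by a small margin. Groups did not overlap on the higher side in 7.59% of all tested genes. The mean was 67.9 ± 9.10 CPM in CD73 KO, against 51.0 ± 2.78 CPM in WT (SD, n = 3 each). This is a 1.33-fold difference, a log2 fold change of 0.41 ± 0.13 (SE; 95% interval 0.13 to 0.69), with an unadjusted p of 0.00764 and an adjusted p of 0.367 in edgeR's test. Tox ranked 255 by p among the 12242 genes. Without the library labelled WT replicate 2 the log2 fold change was 0.39 (edgeR unadjusted p = 0.0326, adjusted p = 0.999). Leaving out CD73 KO replicate 3 gave the highest value, 0.52 (edgeR adjusted p = 0.137), and over the 16 alternatives the adjusted p ran from 0.115 to 0.999. Gm11802, an antisense gene that shares 260 exonic bases with Tox, had 0 counts in every library.

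Tox2 (ENSMUSG00000074607, chromosome 2, 163203125 to 163324170), a close relative that acts beside TOX in exhausted T cells, was all but undetected. A single count was found in CD73 KO replicate 3 among 44452636 counts of the 3 CD73 KO libraries, which is 0.0225 CPM (exact 95% Poisson interval 0.000570 to 0.125, counting error only). None was found among 29485019 counts of the WT libraries, where the upper limit of the same Poisson interval is 0.125 CPM. A floor of 3 counts over the WT group corresponds to 0.102 CPM. No fold change is given. Of the remaining TOX family, Tox3 had 1 count in all libraries together. Tox4, a widely expressed member, measured 171, 154 and 140 CPM in CD73 KO, against 164, 169 and 133 CPM in WT, and the groups overlapped (log2 fold change -0.01 ± 0.13, edgeR adjusted p = 0.993). Tox was thus the detected member of the Tox and Tox2 pair in both genotypes.

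Nr4a2 (ENSMUSG00000026826, chromosome 2, 57106830 to 57124003) had the largest log2 fold change of the 7. It measured 58.4, 76.8 and 75.7 CPM among the CD73 KO libraries, against 39.8, 43.1 and 64.6 CPM in the WT libraries. WT replicate 3 exceeded CD73 KO replicate 1, so the groups overlapped, and the other WT libraries lay below every CD73 KO library. The means were 70.3 ± 10.3 CPM in CD73 KO, against 49.2 ± 13.5 CPM in WT (SD, n = 3 each). The log2 fold change was 0.52 ± 0.19 (SE; 95% interval 0.10 to 0.94), with an unadjusted p of 0.0197 and an adjusted p of 0.446 in edgeR's test. It was 0.43 without the library labelled WT replicate 2 (edgeR unadjusted p = 0.0736) and 0.76 without WT replicate 3. When no filter on low counts was applied, Nr4a2 passed at nearly the same size (log2 fold change 0.52, edgeR adjusted p = 0.0140). That fit called 298 of 21315 genes, against 7 of 12242 in the filtered fit. Over all 16 alternatives the adjusted p of Nr4a2 ran from 0.0140 to 0.999.

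Nr4a1 (ENSMUSG00000023034, chromosome 15, 101254269 to 101274795) is the family member most used as a reporter of receptor signal strength. It measured 40.4, 39.3 and 65.4 CPM among the CD73 KO libraries, against 36.8, 34.9 and 47.3 CPM in the WT libraries. In each genotype replicate 3 was the high library, and WT replicate 3 exceeded CD73 KO replicates 1 and 2. The log2 fold change of 0.28 ± 0.21 (SE; 95% interval -0.18 to 0.75) did not pass (edgeR adjusted p = 0.680). Its size rested on 1 library. Without CD73 KO replicate 3 it was 0.01, and without the library labelled WT replicate 2 it was 0.20.

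Nr4a3 (ENSMUSG00000028341, chromosome 4, 48045153 to 48086447) encodes the family member that does not pair with RXR receptors. It measured 59.5, 65.6 and 71.0 CPM in CD73 KO, against 58.2, 63.4 and 62.8 CPM in WT. The groups overlapped, since CD73 KO replicate 1 lay among the WT libraries, and CD73 KO replicates 2 and 3 were above all of them. The log2 fold change was 0.09 ± 0.11 (SE; 95% interval -0.16 to 0.34; edgeR adjusted p = 0.824), which bounds the ratio of CD73 KO to WT between 0.895 and 1.26. It was 0.11 without the library labelled WT replicate 2. Leaving out CD73 KO replicate 1 gave 0.15, leaving out WT replicate 1 gave 0.05 and leaving out CD73 KO replicate 3 gave 0.02.

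Nfatc1 (ENSMUSG00000033016, chromosome 18, 80606205 to 80713071) encodes the NFAT whose own promoter is induced by NFAT in activated T cells. It measured 243, 274 and 247 CPM in CD73 KO, against 250.5, 238 and 226 CPM in WT. WT replicate 1 exceeded 2 of the CD73 KO libraries. The log2 fold change was 0.10 ± 0.10 (SE; 95% interval -0.13 to 0.32; edgeR adjusted p = 0.778), and 0.09 without the library labelled WT replicate 2. Leaving out CD73 KO replicate 2 gave its lowest value, 0.04, and leaving out WT replicate 3 gave 0.06. Counts per gene do not separate its short, inducible isoform from the longer ones.

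Nfatc2 (ENSMUSG00000027544, chromosome 2, 168476410 to 168601657), the NFAT already present in resting T cells, measured 86.7, 82.4 and 76.2 CPM in CD73 KO, against 83.4, 71.9 and 78.0 CPM in WT. Its log2 fold change was 0.07 ± 0.11 (SE; 95% interval -0.17 to 0.31; edgeR adjusted p = 0.854), and 0.01 without the library labelled WT replicate 2. Leaving out CD73 KO replicate 1 gave 0.02, and 0.12 resulted when CD73 KO replicate 3 or WT replicate 1 was left out. Nfatc3 (ENSMUSG00000031902, chromosome 8, 106058840 to 106130537), another NFAT of T cells, measured 278, 268 and 216 CPM in CD73 KO, against 282, 245 and 218 CPM in WT. The groups of both genes overlapped, and the highest Nfatc3 library was WT replicate 1. The log2 fold change of Nfatc3 was 0.03 ± 0.13 (SE; 95% interval -0.26 to 0.32; edgeR adjusted p = 0.957). It was 0.02 without the library labelled WT replicate 2 and turned to -0.054 without WT replicate 3, with smaller turns without CD73 KO replicate 1 or 2. With CD73 KO replicate 3 or WT replicate 1 left out it was 0.13. For Nfatc1, Nfatc2 and Nfatc3 the intervals bounded the ratio of CD73 KO to WT between 0.836 and 1.25. Esrp2, which shares 219 exonic bases with Nfatc3 on the opposite strand, had 2 to 5 counts per library.

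**Figure D3:**
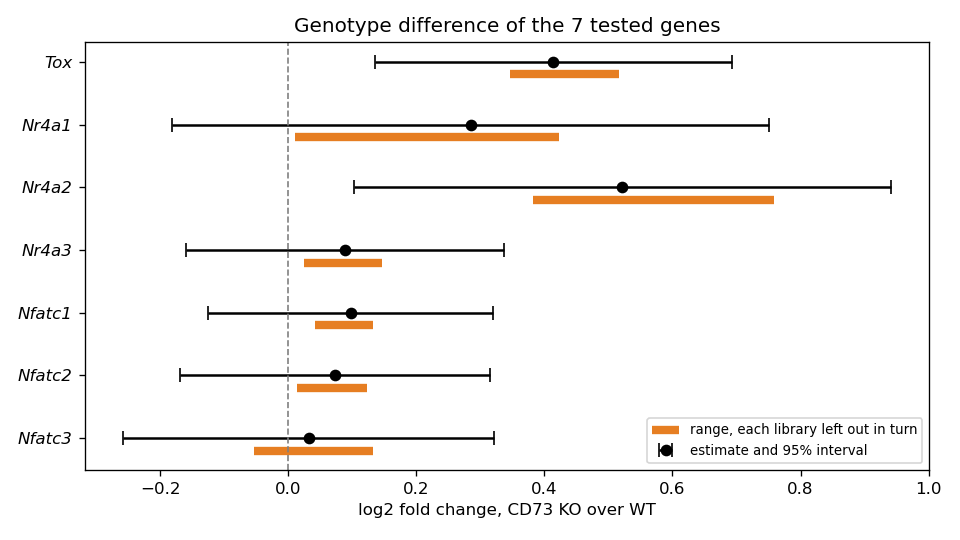
Log2 fold change of CD73 KO over WT for the 7 tested factors; points are estimates with 95% intervals and orange bars the range when each of the 6 libraries was left out in turn. The intervals of Tox and Nr4a2 lie above 0 before adjustment, and Nfatc3 alone changes sign when a library is left out.

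Divided by exon length, the levels had the order Nfatc1, Nfatc3, Nr4a2, Nr4a1, Nr4a3, Tox, Nfatc2 and Tox2. Over the 6 libraries the level in CPM per kb of exon was 33.0 ± 2.14 for Nfatc1, 21.4 ± 2.50 for Nfatc3, 14.7 ± 3.88 for Nr4a2 and 12.5 ± 3.22 for Nr4a1 (SD). It was 10.6 ± 0.770 for Nr4a3, 7.81 ± 1.45 for Tox and 7.54 ± 0.509 for Nfatc2. Nfatc1 stood clear of Nfatc3 in every library, with 30.3 as its lowest value and 24.1 as the highest of Nfatc3. Every other pair of neighbours from Nfatc3 to Nfatc2 overlapped across libraries, although Nr4a3 exceeded Tox within each library. Exon length is that of all annotated exons together, so genes with unused long exons are understated.

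Shares within families were set side by side. Nfatc1 made up 53.8 ± 2.93% of the summed length-corrected level of the 3 NFAT genes in CD73 KO and 52.8 ± 1.41% in WT (SD, n = 3 each). Nfatc2 made up 12.2 ± 0.580% in CD73 KO and 12.2 ± 0.862% in WT. The 3 NFAT genes summed to 63.5 ± 4.39 CPM per kb in CD73 KO and 60.4 ± 4.68 CPM per kb in WT. Among the NR4A genes, Nr4a2 made up 41.4 ± 4.20% in CD73 KO and 35.6 ± 3.84% in WT, and Nr4a3 made up 26.2 ± 1.83% in CD73 KO and 30.9 ± 4.05% in WT. Their sum was 42.0 ± 6.70 CPM per kb in CD73 KO and 33.7 ± 5.40 CPM per kb in WT. These shares and sums were not tested.

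**Figure D4:**
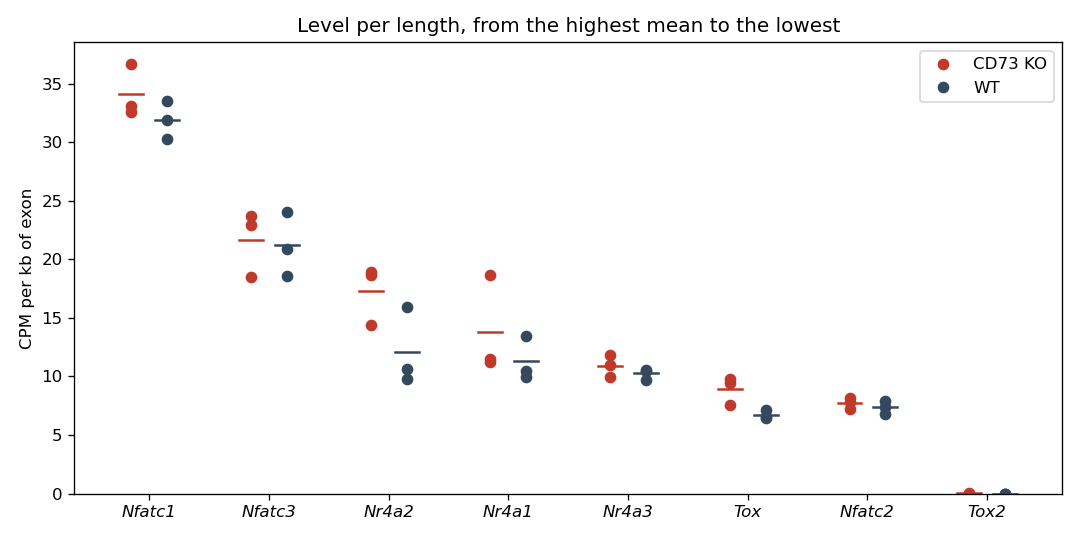
Level of each factor in CPM per kb of exon, ordered by its mean over the 6 libraries; points are libraries, CD73 KO left and WT right, and short lines are group means. Nfatc1, at 30.3 or above in every library, stands apart from the rest, and Tox2 lies at the floor.

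Profiles over the 6 libraries were compared by the root mean square difference of log2 CPM after centring each gene on its own mean. Within the NFAT family the differences were 0.10 for Nfatc1 and Nfatc2, 0.13 for Nfatc1 and Nfatc3 and 0.11 for Nfatc2 and Nfatc3. Within the NR4A family they were 0.28 for Nr4a1 and Nr4a2, 0.24 for Nr4a1 and Nr4a3 and 0.31 for Nr4a2 and Nr4a3. Nr4a3 was closer to Nfatc1 (0.11), Nfatc2 (0.16) and Nfatc3 (0.23) than to either NR4A gene. Genes with little spread are close on this measure whatever their pattern, and the root mean square spread was 0.08 to 0.09 for Nfatc1, Nfatc2 and Nr4a3, against 0.37 for Nr4a2. Tox differed from the NFAT genes by 0.19 to 0.20, from Nr4a3 by 0.25, from Nr4a2 by 0.33 and from Nr4a1 by 0.40. In CD73 KO the Tox low library, replicate 3, was the Nr4a1 high library. Among 9842 other genes of at least 5 CPM, those closest to Tox were Tram2 (0.04) and Lbh (0.05). The closest to Nr4a2 were Map7 (0.05) and Smad1 (0.07), and the closest to Nr4a1 were Zbtb49 and Vps9d1 (0.08 each). Those closest to Nr4a3 were Mfsd8 and Nit1 (0.03 each), to Nfatc1 Chmp1b (0.02) and Tfe3 (0.03), to Nfatc2 Cdk13 (0.03) and Irak1 (0.04), and to Nfatc3 Virma and Zmiz1 (0.03 each). With so many genes and 6 libraries, close profiles are easily found, and the likeness is a description.

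Upstream of NFAT, 0 genes of calcium entry or calcineurin passed. Among calcium entry genes, 8 of 9 were on the higher side in CD73 KO, as were 52.3% of all tested genes. The median was 0.16 on the log2 scale, with 0.03 without CD73 KO replicate 1 as its lowest value when a library was left out. The exception was Itpr1, a calcium release channel of the endoplasmic reticulum, at 51.5, 67.9 and 57.6 CPM in CD73 KO, against 75.0, 68.5 and 82.4 CPM in WT, without overlap, which on the lower side held for 7.60% of all tested genes (log2 fold change -0.35 ± 0.13, edgeR adjusted p = 0.453). Plcg1, the phospholipase that starts the calcium signal, had 0.21 ± 0.13 (adjusted p = 0.643) and Itpr2 had 0.28 ± 0.21 (adjusted p = 0.684) by the same test. Itpr2 came to 0.00 without CD73 KO replicate 1. Of 4 tested calcineurin genes, 1 was on the higher side and 3 on the lower, with a median of -0.01. The 3 of smallest p were the regulatory subunit Ppp3r1 (-0.14 ± 0.11) and the catalytic subunits Ppp3ca (0.19 ± 0.17) and Ppp3cb (-0.01 ± 0.11), with edgeR adjusted p from 0.700 to 0.974. Ppp3ca was at -0.02 without CD73 KO replicate 1, and the median ran from -0.13 to 0.07 with a library left out.

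The list of genes that restrain calcineurin or NFAT, which also holds the drug receptors Ppia and Fkbp1a, divided evenly. Of its genes, 7 of 13 tested were on the higher side, with a median of 0.04, and 0 passed. The median ran from -0.06 without CD73 KO replicate 1 to 0.11 without CD73 KO replicate 3. Ppia, which encodes cyclophilin A, the receptor of ciclosporin, measured 784, 811 and 830 CPM in CD73 KO, against 942, 914 and 886 CPM in WT, without overlap (log2 fold change -0.18 ± 0.09, edgeR adjusted p = 0.562). Groups did not overlap for 1 gene of this list on each side. Over all tested genes this held for 7.60% on the lower side and 7.59% on the higher. Dyrk1a, a kinase that phosphorylates NFAT for export, had 0.19 ± 0.11 (edgeR adjusted p = 0.605), and Fkbp1a, the receptor of tacrolimus, had -0.16 ± 0.10 (edgeR adjusted p = 0.647). Rcan1, a calcineurin inhibitor that NFAT itself induces and which was added after its values were seen, measured 11.2, 13.4 and 14.3 CPM in CD73 KO, against 12.4, 12.6 and 15.7 CPM in WT. Its log2 fold change was -0.06 ± 0.18 (edgeR adjusted p = 0.937). The other NFAT family members were Nfat5, the tonicity-responsive factor that calcineurin does not govern, at 0.29 ± 0.16 (edgeR adjusted p = 0.583; 0.13 without CD73 KO replicate 2), and Nfatc4, with 3 counts in all libraries together.

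AP-1 and IRF partners showed no common direction, with 5 of 11 tested on the higher side, a median of -0.02 and 0 past the threshold. The median was 0.17 without WT replicate 3. Batf3 had the smallest p. It measured 3.35, 5.41 and 7.61 CPM in CD73 KO, against 6.92, 15.1 and 18.8 CPM in WT, so that CD73 KO replicate 3 exceeded WT replicate 1 (log2 fold change -1.32 ± 0.40, edgeR adjusted p = 0.379). Irf4, a factor scaled to receptor signal strength, had 0.35 ± 0.22 (edgeR adjusted p = 0.646; 0.06 without CD73 KO replicate 2). Jun, at 0.46 ± 0.37 (edgeR adjusted p = 0.716), was high in both replicates 3, at 47.9 CPM in CD73 KO, against 45.6 CPM in WT, which are also the high libraries of Nr4a1. Jun was at 0.97 without WT replicate 3.

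Early genes induced alongside Nr4a lay on the same side as Nr4a2. All 12 were on the higher side in CD73 KO, as were 52.3% of all tested genes. Their median was 0.42 on the log2 scale, and 0 passed. The list was chosen with earlier results of these data known. At an unadjusted p under 0.05 there were 4, all higher, where 5.75% of all genes were. Without CD73 KO replicate 1 the list median was 0.28, with 10 of 12 on the higher side, and without WT replicate 3 it was 0.56. Egr2, a factor that NFAT induces, measured 13.7, 13.7 and 16.1 CPM in CD73 KO, against 8.17, 7.03 and 10.3 CPM in WT, without overlap (log2 fold change 0.78 ± 0.19, edgeR adjusted p = 0.287). Btg2, an antiproliferative early gene, had 0.63 ± 0.15 (edgeR adjusted p = 0.287), also without overlap. These were the 2 of 12 without overlap, which on the higher side held for 7.59% of all tested genes. Myc had 0.54 ± 0.18 (edgeR adjusted p = 0.418), with WT replicate 3 at 176 CPM above CD73 KO replicate 3 at 172 CPM.

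Among 11 genes of cAMP and CREB signalling, 8 were on the higher side, as were 52.3% of all tested genes. The median was 0.10 and 0 passed. Without CD73 KO replicate 1 the median was 0.0062, with 7 on the higher side, and leaving out CD73 KO replicate 3 gave 0.19. The phosphodiesterases Pde4d and Pde4b, which break down cAMP, had 0.39 ± 0.15 (edgeR adjusted p = 0.464) and 0.44 ± 0.18 (edgeR adjusted p = 0.502). Pde4b measured 48.4, 56.8 and 40.2 CPM in CD73 KO, against 30.7, 31.8 and 45.8 CPM in WT, where replicate 3 was the high library as it was for Nr4a2. Sik1, a kinase gene that CREB induces, had 0.34 ± 0.21 (edgeR adjusted p = 0.632), with 0.14 when CD73 KO replicate 1 was left out and 0.57 when replicate 2 was.

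Partners of the NR4A and TOX proteins did not pass either. Rxra, a nuclear receptor that pairs with Nr4a1 and Nr4a2 proteins, measured 2.50, 5.02 and 2.31 CPM in CD73 KO, against 4.43, 4.15 and 11.2 CPM in WT (log2 fold change -0.97 ± 0.45, edgeR adjusted p = 0.524). WT replicate 3 was its high library, and the value was -0.38 without it. Rxrb, the more abundant receptor of that family here, had 0.06 ± 0.12 (edgeR adjusted p = 0.891). The HBO1 histone acetyltransferase complex, which TOX binds, had 8 of 9 genes on the higher side, where 52.3% of all tested genes were, and a median of 0.11. Without CD73 KO replicate 1 it had 5 of 9 and a median of 0.0031, and leaving out WT replicate 3 gave 6 of 9 and 0.02. Brpf3, a scaffold of the complex, had the smallest p there (0.31 ± 0.14, edgeR adjusted p = 0.524), followed by Brpf1 (0.18 ± 0.13) and Ing5 (0.22 ± 0.17).

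Genes downstream of these factors were not uniformly on one side. Of 10 exhaustion receptors, 3 were on the higher side and 7 on the lower, with a median of -0.11, and 0 passed. The direction rested on CD73 KO replicate 1, without which 5 of 10 were on the higher side with a median of 0.04 and 0 at an unadjusted p under 0.05. Without CD73 KO replicate 2 the median was -0.37. Havcr2, which encodes TIM-3, measured 9.89, 7.92 and 6.26 CPM in CD73 KO, against 22.8, 49.5 and 7.97 CPM in WT, so that WT replicate 3 lay within the CD73 KO range (log2 fold change -1.73 ± 0.62, edgeR adjusted p = 0.492). Cd200r1 had -1.15 ± 0.47 (edgeR adjusted p = 0.502) and Entpd1, which encodes CD39, had -0.66 ± 0.29 (edgeR adjusted p = 0.517), and in both the low WT library was again replicate 3. At an unadjusted p under 0.05 these 3 were the ones on the lower side, where 3.89% of all genes were.

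Of 12 other factors of exhausted cell state, 8 were on the higher side, as were 52.3% of all tested genes. The median was 0.26, and 0 passed. The median was 0.16 without CD73 KO replicate 2. The groups of 3 of the 12 did not overlap, all on the higher side, where 7.59% of all tested genes were. Tcf7, the factor of stem-like exhausted cells, measured 375, 325 and 280 CPM in CD73 KO, against 211, 133 and 229 CPM in WT, without overlap (log2 fold change 0.77 ± 0.20, edgeR adjusted p = 0.319). Id3, another gene of that state, had 0.59 ± 0.21 (edgeR adjusted p = 0.423). Ikzf2, which encodes HELIOS, measured 88.9, 73.6 and 80.1 CPM in CD73 KO, against 63.0, 19.2 and 27.6 CPM in WT, also without overlap (log2 fold change 1.13 ± 0.42, edgeR adjusted p = 0.502). Ikzf2 passed without WT replicate 1 (1.80, edgeR adjusted p = 0.00489; 0.00489 to 0.999 over the alternatives).

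Cytokine and related targets of NFAT were mixed, with 6 of 10 tested on the higher side, a median of 0.13 and 0 past the threshold. The median ran from -0.15 without CD73 KO replicate 3 to 0.19 without WT replicate 3. At an unadjusted p under 0.05 in edgeR's test, 4 were on the lower side, where 3.89% of all genes were. On the higher side there was 1, where 5.75% of all genes were. Without WT replicate 2 only 1 of 10 in all had such a p. The 3 of smallest p in the full fit were on the lower side. Lta, which encodes lymphotoxin alpha, measured 17.4, 13.6 and 20.2 CPM in CD73 KO, against 27.5, 29.4 and 28.3 CPM in WT, without overlap (log2 fold change -0.74 ± 0.17, edgeR adjusted p = 0.252). Ifng, which encodes interferon gamma, had -0.37 ± 0.13 (edgeR adjusted p = 0.415), also without overlap. Groups did not overlap on the lower side in 3 of 10, against 7.60% of all tested genes. On the higher side this held for 1, against 7.59%. Il2ra, the high-affinity interleukin-2 receptor chain, had -0.48 ± 0.18 (edgeR adjusted p = 0.474).

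Without the library labelled WT replicate 2, several of these values moved. The log2 fold change of Havcr2 was -0.96 and that of Ikzf2 was 0.81. Tcf7 had 0.57, Egr2 had 0.66, Btg2 had 0.51 and Ifng had -0.25. Jun had 0.24, Pde4d had 0.26, Plcg1 had 0.07 and Rxrb had -0.007, while Lta (-0.71), Batf3 (-1.24) and Itpr1 (-0.42) moved less. The median of the NFAT target cytokines turned to -0.13, with 4 of 10 on the higher side, and that of calcineurin turned to 0.07, with 3 of 4 on the higher side. The median of the early genes was 0.32, with 10 of 12 on the higher side, that of calcium entry was 0.07, that of cAMP and CREB signalling was 0.17, that of the HBO1 complex was 0.11 with 6 of 9 on the higher side, and that of the exhaustion receptors was -0.17. None of the genes in these lists passed in that fit.

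**Figure D5:**
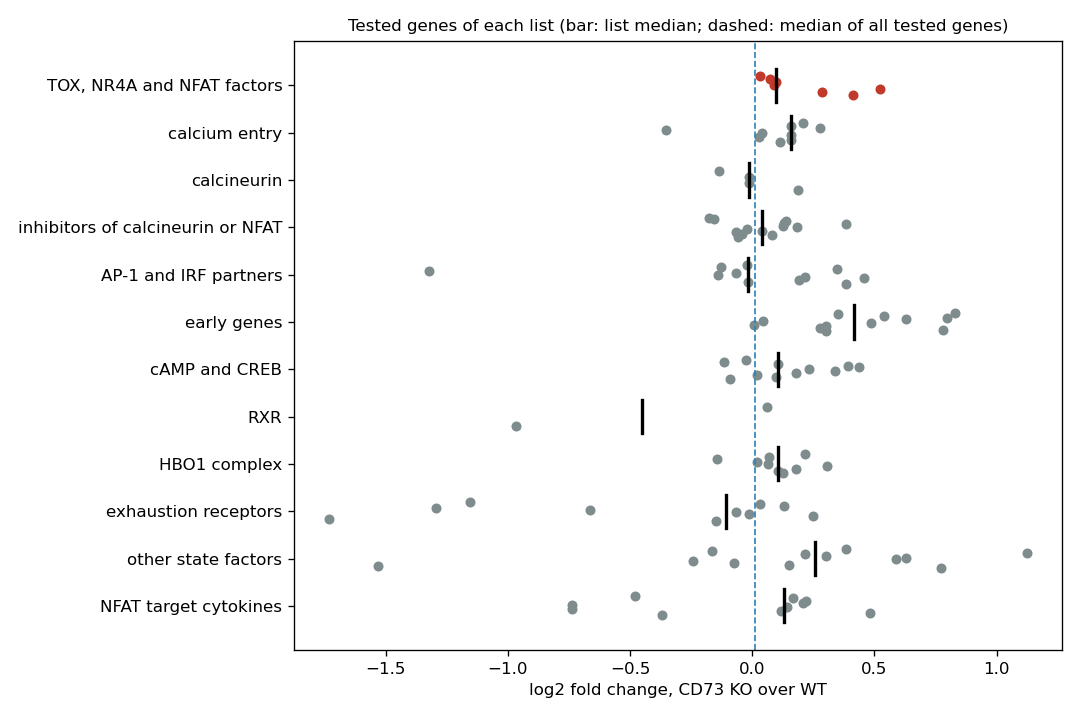
Log2 fold change of CD73 KO over WT for the tested genes of each list, 1 point a gene; black bars are list medians and the dashed line is the median of all 12242 tested genes. The list medians run from -0.45 for the 2 RXR genes to 0.42 for the early genes, and the 7 TOX, NR4A and NFAT factors, in red, sit between 0.03 and 0.52.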

How the data were processed

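RNA-seq counts of 6 libraries, 3 labelled CD73 KO and 3 labelled WT, were analysed. Values are raw counts of reads per Ensembl gene as deposited by the authors, 1 column per library. Per the submitters' processing notes, fastp, HISAT2, featureCounts and mm10 were used, and neither their versions nor the annotation release or strand setting are stated there. Per the labels, the library kit keeps strand. Reads of overlapping genes on opposite strands cannot be told apart without that setting.

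Symbols were found for 49326 of 49671 identifiers. Coordinates and exon lengths come from GENCODE M21 on GRCm38, and start windows, found for 6 of the 8 factors, from RefSeq on GRCm38.p6. Genes were kept with filterByExpr (minimum count 10, minimum total count 15) and compared with the quasi-likelihood F-test of edgeR 4.0.16 in R 4.3.3 (TMM factors, robust, legacy fit). P-values are two-sided and adjusted by Benjamini-Hochberg over 12242 genes at a threshold of 0.05. As standard error served the size of the log2 fold change divided by the square root of F, and the 95% intervals use the t distribution with the fit's degrees of freedom. The fit was also run on counts simulated from its own means and dispersions, with independent libraries and the labels as given. That run cannot address the label of WT replicate 2 or links between libraries. The alternatives replaced the TMM factors (by RLE factors, or by library size only), the filter (by none, or by 1 CPM in at least 3 libraries) or the test (by DESeq2 1.42.0 on all genes, which also dropped the filter, or on the filtered genes, by limma-voom of limma 3.58.1, the edgeR 4 fit, or a fit that is not robust), added the replicate number as a block, or left out 1 library.

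Depth was 6934150 to 19382950 counts per library, and the floor of 3 counts corresponds to 0.155 to 0.433 CPM. The members, lists and alternatives were chosen with earlier results of these data known. Named genes are the 8 factors, Nt5e, and in each list the genes past the threshold or otherwise the 3 of smallest p. The calcineurin list was shortened by 3 genes, not reported here, after its values were seen. Tox4, Tox3, Nfatc4 and Rcan1 were named after their values were seen, as were the marker genes at 0.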

Additional observations from a re-analysis of the deposited data

How the results depend on the processing

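Over 16 alternatives, 112 values of the 7 tested factors were computed, and 108 kept their direction and their side of the threshold. The exceptions were Nr4a2, which passed without a filter on low counts (log2 fold change 0.52, edgeR adjusted p = 0.0140), and Nfatc3, which reversed without CD73 KO replicate 1 (-0.04), CD73 KO replicate 2 (-0.01) and WT replicate 3 (-0.054). Of the 8 factors, 1 was called without the filter and 0 in the other alternatives. The 7 calls among 12242 genes became 298 of 21315 without the filter and 98 of 21314 with DESeq2 without the filter. DESeq2 on the filtered genes, a setting chosen after seeing the data, called 103 of 12242. With a library left out the calls ran from 4 to 8, the lowest without CD73 KO replicate 2 or WT replicate 2. Without the filter, calls in the lists were 1 AP-1 partner (Batf3), 4 early genes (Btg2, Dusp2, Egr2, Myc), 2 receptors (Cd200r1, Entpd1), 2 state factors (Tcf7, Id3) and 2 NFAT targets (Lta, Il2ra). Both DESeq2 settings called 1 in each of 3 lists (Batf3, Tcf7, Lta), and leaving out libraries gave 0 to 1 among state factors (Ikzf2). The cause was not tested.

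With a replicate block, 5 genes and 0 factors were called. In edgeR's test with that block the unadjusted p was 0.00305 for Nr4a2 and 0.0706 for Nr4a1, against 0.0197 and 0.202 without it. It moved less for the other factors. Deviations of same-numbered libraries from their group means correlated at 0.19, -0.18 and 0.05. Between differently numbered libraries of the 2 genotypes the correlations ran from -0.36 to 0.37. With 3 libraries a group the deviations depend on one another, so these values cannot decide whether the numbers pair the samples. In the fits that left out a library, log2 fold changes ran from 0.35 to 0.52 for Tox, 0.38 to 0.76 for Nr4a2, 0.01 to 0.42 for Nr4a1, 0.02 to 0.15 for Nr4a3, 0.04 to 0.13 for Nfatc1, 0.01 to 0.12 for Nfatc2 and -0.054 to 0.13 for Nfatc3. For Tox2, depth limits detection.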
